A study of Mus musculus with 2 samples.

Results

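The distal miRNA cluster of the imprinted Dlk1-Dio3 region, on mouse chromosome 12, is described here in the newborn thymus. Its members were all counted miRNA genes that lie between 109.705 and 109.750 Mb of the genome build GRCm38 (mm10), which gave 38 of the 1973 genes in the count tables. They were taken by position, with earlier results of these data known. Small RNA under 30 nucleotides was sequenced from total RNA of both thymus lobes of 2 pups of the strain B6NCrl, collected on the day of birth (age 0 days). Pup 2 gave replicate 1 and pup 3 gave replicate 2. Per the labels both came from pregnancy 1, 1 library was made from each, no treatment is named, and sex was not recorded. Both samples carry the same donor identifier although their descriptions name different pups. They were taken as littermates from those descriptions, and if they came from 1 animal, n = 2 and the SDs would cover repeat libraries only. The libraries form 1 group, so the data hold no contrast between conditions, and a difference between them cannot be told apart into pup, dissection, library preparation and depth.

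In this region a set of noncoding RNAs (Meg3, Rian and Mirg) and the miRNAs that accompany them is expressed from the maternal chromosome, whereas Dlk1, Rtl1 and Dio3 are expressed from the paternal one. Long precursors carry many hairpins in a row. Each hairpin is cut out in the nucleus by Drosha and trimmed in the cytoplasm by Dicer, and either arm of it (5p or 3p) can be loaded into an Argonaute protein, where bases 2 to 8 of the mature miRNA, the seed, pair with target RNAs. The cluster is best known in brain and placenta and in embryonic tissues, and several members act in neurons: Mir134 restrains the growth of dendritic spines, and Mir485 limits synapse number.

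The annotated gene Mirg (109729764 to 109749460, plus strand) covered only the distal end of the interval. Of the 38 members, 24 lay upstream of it, from Mir379 to Mir544, and 14 lay inside it, 9 of them overlapping an annotated Mirg exon and 5 in introns alone. "Mirg cluster" is thus a name for the neighbourhood, and 24 members are outside that gene as annotated. 34 members were annotated on the plus strand. The other 4 (Mir299b, Gm25750, Gm25252 and Gm24321) were annotated on the minus strand over a plus-strand miRNA, and all of their reads lay on the opposite, plus strand. Those reads were taken as the counts of Mir299a, Mir380, Mir376a and Mir409, in that order, which have no entry of their own in the tables. The 34 plus-strand members had 0 reads on the opposite strand and the 4 minus-strand members had 0 on their own. The loci Mir376b and Gm44322 in the same interval were not analysed here.

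RefSeq (GRCm38.p6) gave 69 mature arms for 37 of the 38 members, between 19 and 25 nucleotides long. For Mir376c, Mir487b, Mir539, Mir485 and Mir453 it gave a single arm. Any other arm of these is missing from every count of arms, seeds and GC content below. The arms of the leading pair, Mir379 and Mir411, and of Mir1193 are shown first because they carry the seeds that counted members share. Seeds (bases 2 to 8) are in capitals.
mmu-miR-379-5p: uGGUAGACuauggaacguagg
mmu-miR-1193-5p: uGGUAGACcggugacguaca
mmu-miR-411-5p: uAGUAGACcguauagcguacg
mmu-miR-379-3p: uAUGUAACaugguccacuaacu
mmu-miR-411-3p: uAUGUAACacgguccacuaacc

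Mir379 and Mir1193 have the same 5p seed, GGUAGAC, and Mir379 and Mir411 have the same 3p seed, AUGUAAC. No RefSeq mouse miRNA gene outside the cluster had either of these seeds. The 3p arms of Mir379 and Mir411 differ at 2 of 22 bases and their 5p arms at 7 of 21. Of the 64 distinct seeds in the cluster, 5 occurred in more than 1 member and 12 arms had a seed that a miRNA gene outside the cluster also has, counting Mir299b and Mir376b, which lie in the interval, as outside. Mir494 and Mir410 share the third seed found on a pair of members with at least 10 counts in each library.
mmu-miR-494-5p: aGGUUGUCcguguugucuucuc
mmu-miR-410-5p: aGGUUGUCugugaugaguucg

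Other members have near relatives in the cluster with a different seed. The 3p arms of Mir300 and Mir381 match at 19 of 22 bases and those of Mir543 and Mir495 at 18 of 22, and the differences reach into the capitals.
mmu-miR-300-3p: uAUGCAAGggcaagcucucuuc
mmu-miR-381-3p: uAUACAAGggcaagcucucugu
mmu-miR-543-3p: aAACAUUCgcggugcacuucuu
mmu-miR-495-3p: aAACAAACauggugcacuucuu

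The sequence GGUCCAC occurred in 5 of the 69 arms (7.25%), those of miR-379-3p, miR-411-3p, miR-380-3p, miR-758-3p and miR-412-3p, and in 0 of 1669 other RefSeq mouse mature arms. The sequence GGUUG occurred in 12 arms (17.4%) of 12 members and in 43 of the others (2.58%). Both were searched on the RNA strand only, neither contains the other, and they were picked after the arms had been read, so they describe these arms and carry no test. The median GC content was 47.6% in the cluster's arms and 52.2% in the others.

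Reads that map to several places were not assigned to genes and made up 56.3% of replicate 1 and 57.5% of replicate 2, so it matters whether an arm exists elsewhere. None of the 69 arms was found whole in another of the 1005 RefSeq mouse hairpins, and arms without a RefSeq entry were not searched. The longest run shared with another hairpin was 18 bases, between the 5p arm of Mir376c and Mir376b, and the median was 10. Over whole hairpins, 4 members (Mir411 and Mir758 with each other, Mir376c and Mir487b with Mir376b) shared a stretch of 20 bases with another miRNA gene, and their counts are less certain for that reason. These searches covered annotated miRNA hairpins and not the rest of the genome.

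The cluster held 26675 of 2740254 counts in replicate 1 and 16056 of 1292393 in replicate 2. These shares were 0.973% (95% Wilson interval 0.962 to 0.985) and 1.24% (1.22 to 1.26), with a mean of 1.11% ± 0.190 (SD, n = 2). The totals hold opposite-strand reads for the 4 minus-strand members only and gene-strand reads for all other genes. With both strands of every gene counted, the mean share was 0.950%, and Mir411 had a mean of 1959 in place of 2284 per 1000000 counts. The thymus is a mixture of cells, and in a bulk sample fewer cells of a type cannot be told apart from less RNA per cell. Levels are given as counts scaled to 1000000 of those totals (CPM). Each read stands for a single small RNA, so CPM was not divided by the length of the annotated interval, which ran from 49 to 123 bp and had a Spearman rho of 0.09 with the mean level over the 32 members defined next. Both arms of a hairpin are summed, and capture of small RNAs differs between sequences, so the order of CPM need not be the order of molecules. Errors are SD over the 2 libraries (n = 2). Reads amplified by PCR are not independent molecules, and the labels describe no molecular identifiers. Intervals and limits therefore cover counting error only.

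A member was called detected when each library held 10 or more of its counts, which 32 of the 38 reached. Mir654, Mir453 and Gm27379 had 0 counts in both, where the limit that 0 counts allow (3 counts) equals 1.09 CPM in replicate 1 and 2.32 CPM in replicate 2. Mir758 had 2 and 1 counts, Mir544 had 1 and 1, and Mir1197 had 0 and 1. These 6 members lie among detected ones and not at an end of the cluster.

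Mir411 had the highest level, with 4517 counts (1648 CPM) in replicate 1 and 3774 counts (2920 CPM) in replicate 2. Mir379, the first hairpin of the cluster (chromosome 12, 109709060 to 109709125, plus strand), followed with 3386 counts (1236 CPM) and 1996 counts (1544 CPM). Mir411 (109710175 to 109710256, plus strand) lies 1049 bp downstream of it and exceeded it in both libraries, by 1.33 times in replicate 1 and 1.89 times in replicate 2, ratios that do not depend on scaling between libraries. Mir487b had 2924 and 1569 counts (1141 CPM ± 104). Mir376a, read over Gm25252 and known as a target of adenosine-to-inosine editing in its seed, had 2630 and 1335 counts (996 CPM ± 51.8). These 4 members kept their order in both libraries.

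The next group lay close together in level. Mir541 had 2011 and 970 counts (742 CPM ± 11.8) and Mir409, read over Gm24321, had 1674 and 900 (654 ± 60.5). Mir369, a miRNA known for binding the AU-rich element of the Tnf messenger, had 1319 and 1012 counts (632 CPM ± 213). Mir381 had 1519 and 842 counts (603 ± 68.7), Mir382 had 1545 and 729 (564 ± 0.179), and Mir299a, read over Mir299b, had 1030 and 645 (437 ± 87.1). The arms of Mir299a run 1 base (5p) and 4 bases (3p) past the 49 bp interval of Mir299b. Whether its count lost reads for that reason is not known. Mir409 and Mir369, Mir369 and Mir381, and Mir381 and Mir382 each changed order between the libraries, so their ranks did not differ beyond the spread. Over all 31 neighbouring pairs in the order of levels, 20 had the same order in both libraries, 10 turned and 1 (Mir679 and Mir377) was tied in replicate 2.

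A few members supplied most of the reads. Mir411 alone took 20.2% ± 4.65 of the cluster's counts, the 5 highest members took 59.0% ± 1.47 and the 10 highest took 85.2% ± 0.863. Of the detected members, 15 had a mean of at least 100 CPM and 17 were below. The lowest was Mir3072, the last member of the cluster, with 20 and 16 counts (9.84 CPM ± 3.59), which makes a range of 232 times from lowest to highest. The median of the 32 detected members was 77.2 CPM, against 252 CPM over the 298 genes of the tables that reached the same minimum. Mir411 ranked at place 74 of all genes by mean CPM, and 4 members were among the first 100. Of members known from work in neurons, picked here as examples, Mir134 had 358 and 158 counts (126 CPM ± 5.93), Mir329 had 144 and 85 (59.2 ± 9.35), and Mir485 had 100 and 66 (43.8 ± 10.3).

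**Figure D1:**
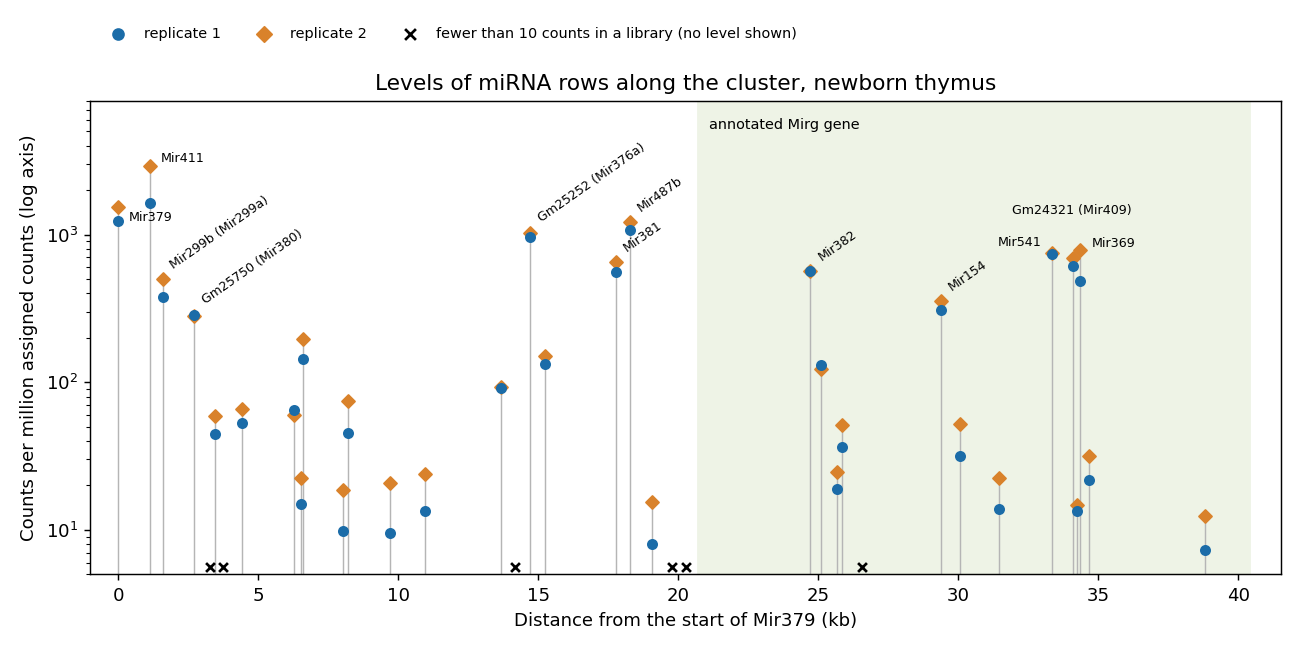
CPM (log axis) of the 32 detected members against the distance of each from the start of Mir379 in kb, circles for replicate 1 and diamonds for replicate 2, members above 250 CPM named. Crosses mark the 6 members with fewer than 10 counts in a library; members above 250 CPM lie on both sides of the start of Mirg (shaded), and the 10 detected members from Mir323 to Mir376c are all at or below the 169 CPM of Mir1193.

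Level was not ordered along the cluster in a simple way. Over the 32 detected members, Spearman's rho between start position and mean CPM was -0.22, with -0.21 in replicate 1 and -0.22 in replicate 2. It was -0.14 without Mir3072 and -0.068 over the 16 members with 100 or more counts in each library. The points share both libraries, so this rho is a description and has no p-value. Level and mean GC content of a member's arms had a rho of -0.32 over the same 32 members.

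The 2 widest gaps between neighbouring members, 4368 bp before Mir382 and 4082 bp before Mir3072, divided the cluster into 3 stretches. The first, from Mir379 to Mir544, is the part upstream of Mirg and held 69.5% and 72.0% of the cluster's counts in replicates 1 and 2. The second, from Mir382 to Mir410, held 30.5% and 27.9%. Mir3072 alone formed the third, with 0.0750% and 0.0997%. The detected members of the first stretch (19 of 24) had a median level of 92.2 CPM and those of the second (12 of 13) 85.1 CPM. Inside Mirg, the 4 detected members in introns (Mir154, Mir496a, Mir541 and Gm24321) had a median of 493 CPM and the 9 that overlap an exon had 26.8 CPM, and both sets had low and high members (Mir496a at 41.6 CPM, Mir369 at 632 CPM).

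Neighbouring hairpins differed widely in level. Of the 31 pairs of neighbouring detected members, 15 were over 5-fold apart by the mean of both libraries' ratios, with a median of 4.93-fold, and 12 were so in each library. Mir412 (109743289 to 109743368, plus strand) had 37 and 19 counts (14.1 CPM ± 0.848). It lies 51 bp from the end of Gm24321 and 49 bp before the start of Mir369. The counts over Gm24321 exceeded those of Mir412 by 45.2 times in replicate 1 and 47.4 times in replicate 2. Mir487b exceeded the next detected member, Mir539 (22 and 20 counts), by 133 and 78.5 times, over a distance of 714 bp. The arms of the low member Mir412 and of its high neighbours are as follows, with seeds in capitals.
mmu-miR-409-5p: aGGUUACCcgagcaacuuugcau
mmu-miR-409-3p: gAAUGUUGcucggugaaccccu
mmu-miR-412-5p: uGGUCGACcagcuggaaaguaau
mmu-miR-412-3p: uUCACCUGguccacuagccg
mmu-miR-369-5p: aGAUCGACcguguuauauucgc
mmu-miR-369-3p: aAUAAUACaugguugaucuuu

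**Figure D2:**
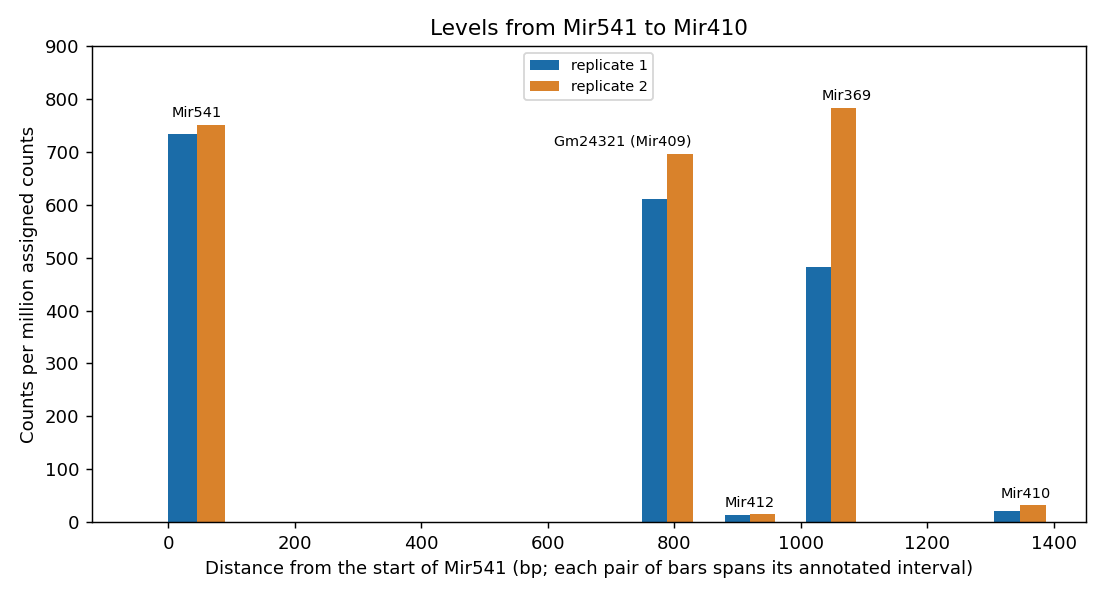
CPM (linear axis from 0) of the 5 members from Mir541 to Mir410, drawn to scale by distance from the start of Mir541 in bp, with the left bar for replicate 1 and the right bar for replicate 2. Mir412, at 14.1 CPM on average, stands between Gm24321 (Mir409) at 654 and Mir369 at 632, and Mir410 follows at 26.8.

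Detected members with a shared seed were between 1.33 and 8.62 times apart in level. Mir379 and Mir411, with the same 3p seed and the highest levels of the cluster, were 1.33 times apart in replicate 1 and 1.89 times in replicate 2. Mir379 exceeded Mir1193 (393 and 252 counts) by 8.62 times in replicate 1 and 7.92 times in replicate 2. Mir410 (60 and 41 counts) had 0.337 times the counts of Mir494 (178 and 77) in replicate 1 and 0.532 times in replicate 2. The related hairpins Mir376a and Mir376c also differed, with counts over Gm25252 10.5 times those of Mir376c (251 and 120 counts) in replicate 1 and 11.1 times in replicate 2. In each of these pairs the same member was higher in both libraries. Mir376c shares a stretch of sequence with Mir376b, so its count is less certain.

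The littermates' libraries were then compared member by member. Each gene's counts in replicate 2 against replicate 1 were tested by a two-sided exact binomial test on library sizes scaled by TMM (the trimmed mean of M-values), with Benjamini-Hochberg adjustment over all 298 genes tested. It compares these 2 libraries by counting error and has no replicate check. Of the 32 members tested, 26 had a log2 ratio of replicate 2 over replicate 1 above 0. 10 members were higher in replicate 2 at an adjusted p below 0.05, 0 were lower (0 also at an unadjusted p below 0.05), and 22 did not pass. Over all 298 genes, 20.1% were called higher and 23.2% lower. The cluster's 31.3% called higher stands beside that 20.1%, and its median log2 ratio of 0.32 beside -0.03. Summed over the members, the log2 ratio was 0.28, or 0.16 without Mir411. A negative binomial test in edgeR, which adds a spread between libraries estimated from the same pair (coefficient of variation 0.153), called 0 members, with a lowest adjusted p of 0.955, and 0.336% of all genes. At an unadjusted p below 0.05 it passed 3 members and 15 of all genes.

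Among the 16 members with 100 or more counts in each library, Mir411 had the highest log2 ratio, 0.76, with an exact 95% interval from 0.69 to 0.82 and an adjusted p of 1.8e-120 by the exact test. Mir379, the neighbour with the same 3p seed, had 0.25 (0.17 to 0.33, adjusted exact p = 3.2e-09). The intervals of this pair do not overlap. Mir369 had a log2 ratio of 0.63 (0.51 to 0.75, adjusted exact p = 2.7e-24), whereas the counts over Gm24321, with only Mir412 between them, had 0.12 (0.0022 to 0.24) and Mir541 had -0.04 (-0.15 to 0.08). Mir369 was below Gm24321 in replicate 1 (0.788 times its counts) and above it in replicate 2 (1.12 times). Mir299a, read over Mir299b, had 0.34 (0.20 to 0.48).

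The other called members had smaller counts or smaller ratios. Mir1193 (log2 ratio 0.37), Mir381 (0.16) and Mir487b (0.12) were among the 16 well counted members. Mir543 (124 and 96 counts, 0.65), Mir496a (86 and 67, 0.66) and Mir495 (26 and 27, 1.07) were lower in count. Mir495 had the highest ratio of the cluster, with an interval from 0.24 to 1.91. The largest adjusted exact binomial p of the 10 was 0.023, that of Mir487b.

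The 6 members with a ratio below 0 were Mir494 (-0.19), Mir134 (-0.16), Mir380 read over Gm25750 (787 and 362 counts, -0.10), Mir382 (-0.07), Mir376c (-0.05) and Mir541 (-0.04). None of the 6 passed the test. Mir376a, read over Gm25252, had a ratio of 0.04 with an interval from -0.06 to 0.13.

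**Figure D3:**
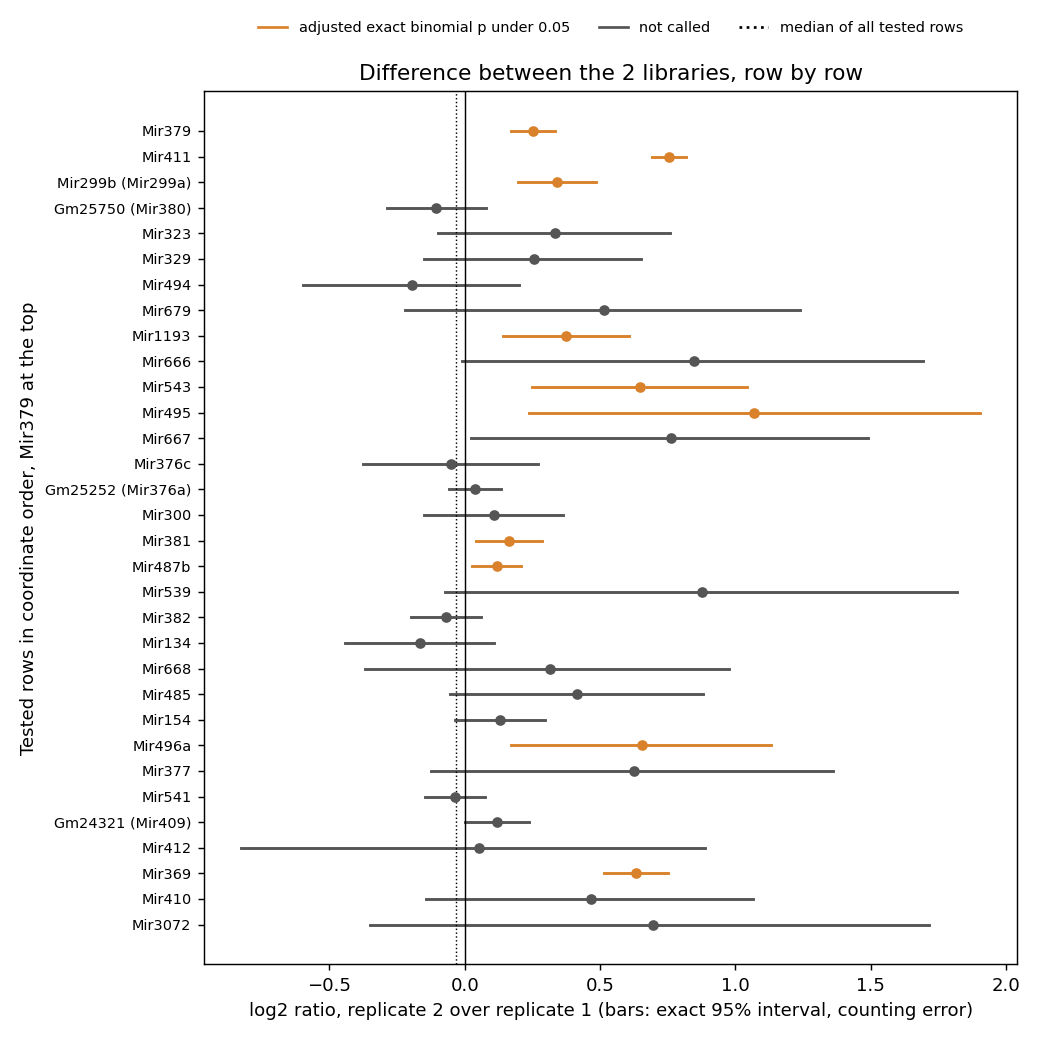
Log2 ratio of replicate 2 over replicate 1 for the 32 tested members, from Mir379 at the top to Mir3072 at the bottom, with exact 95% intervals from counting error. Coloured members are the 10 called higher, and the dotted line is the median of all 298 tested genes (-0.03). The first 3 members are called, and 8 of the 10 calls lie from Mir379 to Mir544, as do 19 of the 32 tested members.

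Spearman's rho between start position and log2 ratio was 0.0018 over the 32 tested members, 0.076 without Mir411 and -0.22 over the 16 well counted members, again a description with no p-value. In the first stretch, 8 of 19 tested members (42.1%) were called higher, beside 20.1% of all genes, with a median log2 ratio of 0.33. In the second, 2 of 12 (16.7%) were called higher with a median of 0.22, and Mir3072 had 0.69 (-0.35 to 1.72) without passing. By 3 windows of 15 kb, 6 of 12 (50%), 2 of 11 (18.2%) and 2 of 9 (22.2%) members were called higher, with medians of 0.36, 0.12 and 0.47. Apart from the first stretch and the first window, these shares lie near that over all genes. Whether the stretches differ was not tested.

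Members with few counts had the higher ratios. Spearman's rho between mean CPM and log2 ratio was -0.49 over the 32 members and -0.11 over all 298 tested genes. The 16 members with fewer than 100 counts in a library had a median log2 ratio of 0.57 and 15 of them were above 0, but 3 were called. The 16 with at least 100 counts in both had a median of 0.12, 11 were above 0 and 7 were called. Outside the cluster, the 87 tested genes with fewer than 100 counts had a median of -0.08 with 38 above 0 and 4 called higher. The 179 better counted ones had a median of -0.05 with 75 above 0 and 46 called higher. The minimum of 10 counts applies to the shallower replicate 2 as well, so a gene near it is kept more readily when it is relatively high there. In the cluster, the lowest tested member, Mir3072, had 20 and 16 counts, and the 6 members left out had 2 or fewer in each library. The part of the minimum in these ratios was not tested.

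**Figure D4:**
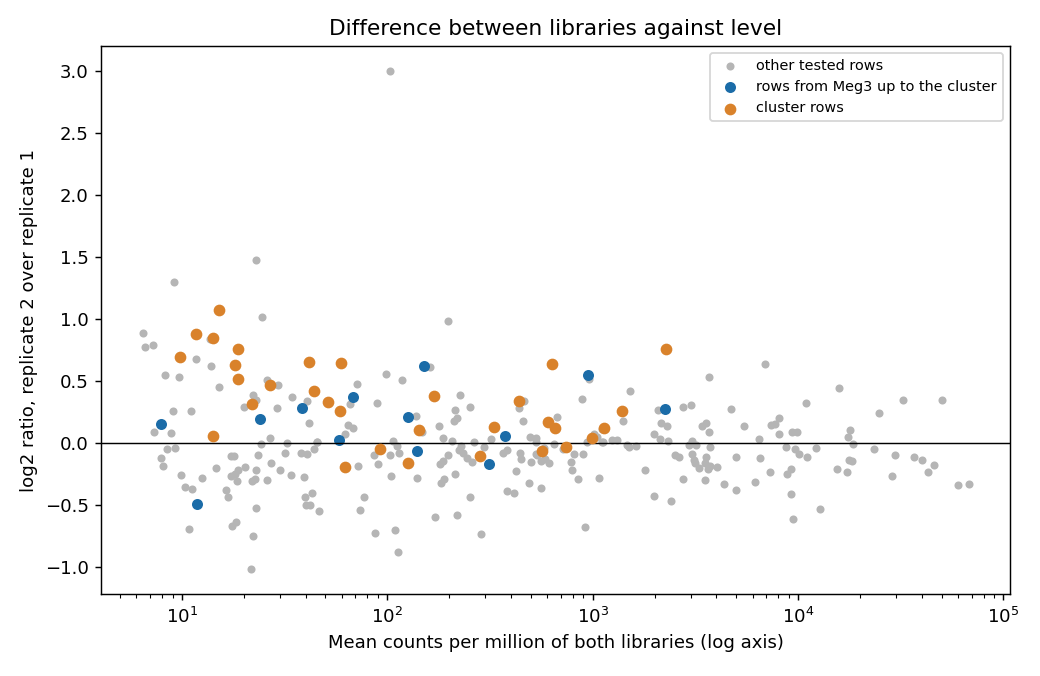
Log2 ratio of replicate 2 over replicate 1 against mean CPM (log axis) for all 298 tested genes, with cluster members in orange, the 13 tested miRNA genes from Meg3 up to the cluster in blue and all others in grey. Orange points lie mostly above 0 and highest at low levels; the grey point near 3 is Mir208b.

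The miRNA genes upstream in the same imprinted region, from Meg3 up to the cluster, were set beside it. They number 20, of which 13 were tested, and held 0.398% and 0.505% of the counts in replicates 1 and 2. Their ratios were above 0 in 10 of 13, 3 (23.1%) were called higher and 0 lower, beside 20.1% called higher and 139 of 298 above 0 over all genes. The median log2 ratio was 0.20 (cluster 0.32). Summed counts gave a log2 ratio of 0.28 for both sets. The 3 called were Mir127, which lies antisense to Rtl1 (5466 and 3258 counts, log2 ratio 0.27), Mir431 (2043 and 1480, 0.55) and Mir433 (315 and 240, 0.62). The same libraries underlie both sets, and a difference between the sets was not tested.

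Marker miRNAs of other cells also differed between the libraries. The gene of the defining thymocyte miRNA, Mir181a-1, was abundant (101764 and 46465 counts) in both libraries. Multimapping reads are left out for every marker, so a count need not give the level of the mature miRNA. Of the 4 counted T cell markers, 3 were lower in replicate 2 and Mir150 was higher, with a median log2 ratio of -0.21 and summed levels of 42901 and 41591 CPM. The miR-181 genes outside this list went both ways. Mir181a-2 was called higher (352 and 344 counts, 0.98). Mir181b-2 (30723 and 9944, -0.61) and Mir181d (15195 and 5768, -0.38) were called lower, and Mir181c was not called (-0.04). Mir142 was not analysed here. Of the mesenchymal and smooth muscle markers, all 5 tested of 6 counted had a ratio above 0, 2 passed (Mir143, 0.35, and Mir214, 0.51), the median was 0.26, and the summed levels were 45630 and 60482 CPM. The endothelial marker Mir126a had 0.34. The 7 epithelial markers went both ways (3 higher, 2 lower, median 0.05; 39560 and 40531 CPM). Of the 7 counted striated muscle markers, 2 of 3 tested were higher (Mir208b, 60 and 238 counts, and Mir499, 32 and 44). Mir206 was not called (1217 and 570 counts, -0.08), and Mir208a, below the minimum, had 6 and 105 counts. The median log2 ratio of the 3 tested was 1.48, and the summed levels were 480 and 740 CPM. Mir1a-1, Mir133a-1 and Mir133a-2 were at 0, where multimapping reads are not counted, and Mir1a-2 was not analysed here. The erythroid markers were -0.88 (Mir451a, passed) and -0.10 (Mir144), and summed to 231 and 167 CPM. The myeloid marker Mir223 had -0.29. Of the 7 counted neural markers, Mir124a-1, Mir124a-2, Mir124a-3 and Mir9-2 were at 0, where multimapping reads are not counted. Mir9-3 had 1 count in each library. Of the 2 tested, Mir137 passed with 0.47 and Mir219a-1 did not (112 and 52 counts, -0.09). The median log2 ratio of these 2 was 0.19, and the summed levels of all 7 were 99.3 and 125 CPM. The part of any of these cells in the ratios of the cluster was not tested.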

How the data were processed

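Per the labels, 1 small RNA library was made from each of 2 pups, taken as littermates. The authors deposited a table of raw read counts for each library, by miRNA gene, mapped to mm10 and counted over GENCODE annotation M4, per the text files deposited with the tables. Aligner and counter were not given in the sources used here. Column 2 of the deposited counts equals the sum of columns 3 (gene strand, from the values) and 4 (opposite strand) in every gene. Column 3 was used, and column 4 for the 4 minus-strand members. Totals of unmapped reads (10.6% and 9.17%), multimapping reads and reads outside genes on both strands (2.99% and 2.57%) were left out of library sizes. GENCODE M21, a later release, gave symbols and GRCm38 coordinates for 1894 of 1973 genes, and the 79 unmatched ones were at 0 on the gene strand. Replicate 1 had 2734133 counts on the gene strand and replicate 2 had 1289151. A comparison of their counts over genes gave a chi-square of 27496 (687 degrees of freedom), so they are not 1 library deposited as 2.

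Genes that reached 10 counts in each library were tested by the exact binomial test, two-sided, with Benjamini-Hochberg adjustment over all of them, with TMM from edgeR 4.0.16 in R 4.3.3 and binomial tests and Wilson and exact intervals in scipy 1.17.1 (Python 3.11.15). Sequences came from RefSeq tables of GRCm38.p6. With libraries taken as those of littermates, p-values measure only the difference between these libraries. Alternatives were the unstranded column, the gene strand alone, filters of 1 or 100 counts, DESeq2 1.42.0 size factors, total counts, leaving out members that share 20 bases, a negative binomial test, each library alone and equal windows. Leaving out Mir411 or Mir3072 was added after seeing the data. Members, lists and the rule for naming genes were chosen with earlier results of these data known. The rule names in full the 10 highest members, the minus-strand ones, every called one, the first and last detected, and detected members that share a seed. Others are named as examples.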

Additional observations from a re-analysis of the deposited data

How the results depend on the processing

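No paired analysis was possible because the 2 libraries form 1 group. No setting called a member lower in replicate 2. The number called higher was between 8 and 13 of the members tested under all settings except the negative binomial test, where it was 0. The base changed with the setting. With at least 1 count, 8 of 34 members and 58 of all 520 genes tested were called higher. With at least 100 counts these were 8 of 16 and 57 of 195. They were 10 of 32 and 61 of 304 with unstranded counts, and 9 of 28 and 59 of 294 on the gene strand alone. With DESeq2 size factors they were 11 of 32 and 63 of 298, and with total counts 13 of 32 and 74 of 298. The 10 genes were all called again with unstranded counts, DESeq2 size factors and total counts. With total counts the median of all tested genes rose from -0.03 to 0.04, and over all genes 74 were called higher and 52 lower, against 60 and 69. With total counts 29 of the 32 members had a log2 ratio above 0, against 26 in the main setting. Mir541 (0.032), Mir382 (0.00065) and Mir376c (91.6 and 92.9 CPM in replicates 1 and 2) turned from below to above 0. Gm24321 was called higher with DESeq2 (0.15) and with total counts (0.19). The cluster's median log2 ratio was 0.33 with unstranded counts, 0.36 with the gene strand alone, 0.31 with at least 1 count, 0.15 with at least 100 counts (16 members), 0.35 with DESeq2, 0.39 with total counts, 0.33 without members that share 20 bases and 0.32 without Mir411. The share of counts was 0.950% with unstranded counts and 0.873% on the gene strand alone, where the 4 minus-strand members give 0. It was 0.756% without members that share 20 bases and 0.879% without Mir411. Single libraries gave shares of 0.973% to 1.24%.

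The rho of level with position was -0.23 on the gene strand alone, -0.16 with at least 1 count, -0.068 with at least 100, -0.17 without members that share 20 bases, -0.14 without Mir411, -0.14 without Mir3072, and -0.21 to -0.22 in single libraries. The rho of ratio with position changed sign around 0: -0.044 on the gene strand alone, 0.051 with at least 1 count, -0.22 with at least 100, 0.084 without members that share 20 bases, 0.076 without Mir411 and -0.056 without Mir3072. The causes were not tested. The 3 stretches held 57.3%, 42.6% and 0.128% of the cluster's counts without members that share 20 bases, 63.3%, 36.6% and 0.110% without Mir411, 43.4%, 34.3% and 22.4% as equal windows, and 0.111% for the third on the gene strand alone. In single libraries they ran from 69.5% to 72.0%, 27.9% to 30.5% and 0.0750% to 0.0997%. Depth limits the lower members most: Mir495, at 26 and 27 counts, had an interval from 0.24 to 1.91 on the log2 scale.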
